A study of Ovis aries with 41 samples.

Results

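The metalloproteases of the tail skin of sheep and their inhibitors were followed along the tail and between HOXB13 genotypes. They were taken from the deposited count table by symbol, as MMP, ADAM, ADAMTS or ADAMTSL plus a number, ADAMDEC1, and TIMP1 to TIMP4. This rule used no measured value and found 60 of 31182 genes, of which 18 were MMPs, 15 ADAMs (ADAMDEC1 included), 19 ADAMTS, 4 ADAMTSL and 4 TIMP genes. Post-mortem biopsies of shaved tail skin came from base, mid-tail and tip of 7 untreated adult rams of the Improved Jezersko-Solčava breed. The 4 A/A rams (835507, 871772, 871784 and 871932) carried the ancestral HOXB13 promoter allele on both chromosomes, as short-tailed sheep do. The 3 D/D rams (871787, 871868 and 871869) carried the derived allele, which has an insertion and is that of long-tailed sheep. The methods text counts 3 A/A rams for RNA sequencing and the labels list 4, all of which were used. A/A and D/D rams were different animals, so that the genotype cannot be told apart from other differences between them.

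Matrix metalloproteases (MMPs) are zinc enzymes that cut collagen, gelatin, proteoglycans and many proteins of the cell surface. ADAMs are membrane-bound relatives that release growth factors, cytokines and adhesion molecules from cells, while ADAMTS enzymes are secreted and process procollagen, aggrecan, versican and fibrillin-rich fibres. TIMPs bind the active site of these enzymes and block it. In skin this system is known for the turnover of the dermis, the cycling of the hair or wool follicle and the repair of wounds.

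Each ram and position gave 2 libraries, except the mid-tail of D/D ram 871869 with 1, so that 41 libraries of 9177395 to 23431409 counts (median 14039720) were available. Libraries of a ram and position came from 1 animal and were summed to 21 ram sums of 17132063 to 37645752 counts, and n below is the number of rams. Paired libraries differed far beyond counting error, with a chi-square per degree of freedom of 14.6 to 128 over all genes. Over the members it was 5.08 to 73.9. Levels are CPM, the counts of a gene scaled to the depth of the ram sum after TMM correction, and differences are log2 fold changes with their standard error (SE) from edgeR. The verbs rose and fell are kept for genes with a Benjamini-Hochberg adjusted p under 0.05 over all genes tested. Markers of the labelled tissue were present. Keratinocyte markers summed to 12400 to 41000 CPM and fibroblast markers to 2740 to 16400 CPM in every ram sum, and 5 of 6 keratinocyte and 5 of 5 fibroblast markers were in the table.

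Of the 60 members, 56 had enough counts to be tested between positions. MMP8, the neutrophil collagenase, had no count in any library, and ADAM7 with 6, ADAM18 with 35 and MMP17 with 43 counts over all libraries were too low. ADAM7 and ADAM18 are known from the male reproductive tract. CPM of different genes were not ranked, because no transcript lengths were given. Several members lie side by side in the genome (ARS-UI_Ramb_v3.0). A run of 7 MMP genes spans chromosome 15 from 5380854 to 5840859 in the order MMP13, MMP12, MMP1, MMP8, MMP27, MMP20 and MMP7. ADAM7, ADAMDEC1 and ADAM28 lie on chromosome 2 between 41227789 and 41434078, ADAMTS8 and ADAMTS15 on chromosome 21 between 33874811 and 33943159, and ADAMTS5 and ADAMTS1 on chromosome 1 between 130018461 and 130184286. Of the other members that the results turn on, MMP2 lies on chromosome 14 (23247440 to 23273464), ADAMTS2 on chromosome 5 (1787346 to 2042368) and ADAMTSL4 on chromosome 1 (100568862 to 100580072). ADAMTS6 (14157726 to 14447677) and ADAMTS16 (67890388 to 68073986) lie on chromosome 16, and ADAM11 (44223854 to 44244442) and TIMP2 (52767940 to 52854459) on chromosome 11. The counts are per gene and do not separate exons or untranslated regions.

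The first question was which members differed between the tip and the base of the tail within the same rams. Of the 56 members, 9 fell and 1 rose over the 7 rams, 17.9% against 4.99% of all 19444 genes tested. Those that fell were MMP2, MMP27, ADAM11, ADAM28, ADAMTS2, ADAMTS15, ADAMTS16, ADAMTSL4 and TIMP2, and the one that rose was ADAMTS6. DESeq2 on the ram sums called all of these and also MMP9, MMP12 and TIMP4. With limma-voom ADAMTS6 was not called and ADAMDEC1 was. The log2 fold change was negative for 33 and positive for 23 members with a median of -0.09, while over all genes the median was -0.02. The stricter thresholds of the methods (adjusted p up to 0.01, change of more than 1 on the log2 scale) were passed by ADAMTS2, MMP2 and ADAMTS15, 3 members against 1.28% of all genes. In every ram the tip was below the base for 8 members (14.3% against 3.79% of all genes) and above it for 1, ADAM19 (1.79% against 3.4%). In whole skin, fewer cells of a type and less RNA per cell cannot be told apart.

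**Figure D1:**
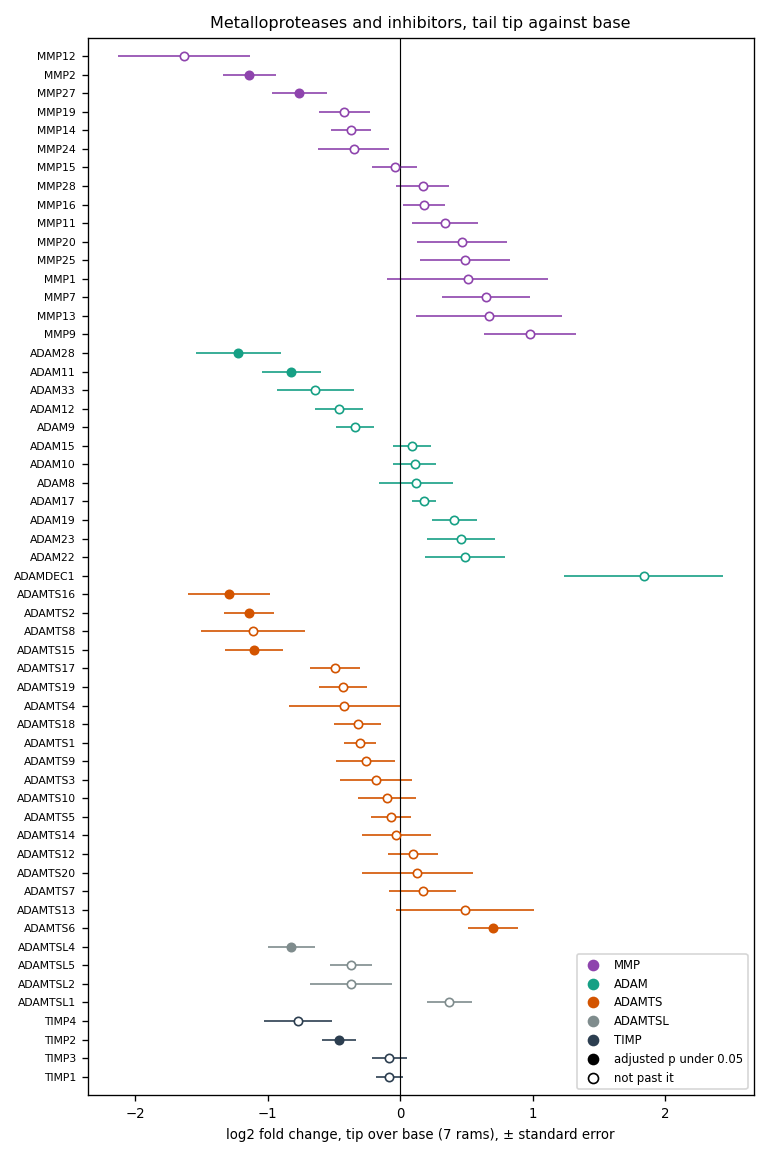
Log2 fold change of tip over base with its standard error over 7 rams for each of the 56 members tested, grouped and coloured by family. Filled points passed an adjusted p under 0.05, which 9 members left of the zero line and ADAMTS6 right of it did.

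Among the gelatinases, MMP2, which cuts gelatin and basement membrane collagen, stood at 215 to 359 CPM at the base (median 244), 79.5 to 275 in mid-tail skin (median 197) and 93.8 to 186 at the tip (median 114). The lowest base value lay above the highest tip value, so that the ram sums did not overlap. Single libraries did, with 144 CPM in a base library of ram 871868 and 205 in a tip library of ram 871772. MMP2 fell by 1.14 on the log2 scale (SE 0.20, adjusted p = 0.00291) and was lower in 7 of 7 rams. In every ram the second base library was above the first, as in ram 871784 with 165 and 447 CPM. With first libraries alone, ram 871868 was higher at the tip (144 to 174 CPM), and the other rams were lower. MMP9, the gelatinase of leukocytes and keratinocytes, had a log2 fold change of 0.98 (SE 0.35, adjusted p = 0.12), with 0.419 to 4.81 CPM at the base and 0.603 to 17 at the tip. MMP14, the membrane-bound activator of the MMP2 zymogen, was at 119 to 168 CPM (median 145) at the base and 90.7 to 141 (median 108) at the tip. Its values were lower in 7 of 7 rams, but the difference of -0.37 (SE 0.15, adjusted p = 0.195) did not pass.

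MMP27, a stromelysin-like enzyme of little known substrates, was at 4.21 to 16.4 CPM (median 10.7) at the base and 5 to 7.47 (median 5.81) at the tip. It fell by 0.76 (SE 0.21, adjusted p = 0.0397) and was lower in 6 of 7 rams, the exception being A/A ram 871932 with 4.21 at the base and 6.85 at the tip. The call was lost without ram 835507 (adjusted p = 0.0893), 871772 (0.0622), 871784 (0.14), 871787 (0.108), 871868 (0.068) or 871869 (0.115). MMP12, the elastase of macrophages, was at 0.866 to 7.55 CPM (median 1.54) at the base and 0.0279 to 4.08 (median 0.509) at the tip. It was lower at the tip in 7 of 7 rams, with a log2 fold change of -1.63 (SE 0.50, adjusted p = 0.0666) that did not pass in edgeR. DESeq2 on the ram sums called it. The collagenases MMP1 and MMP13, the stromelysin MMP11 and the matrilysin MMP7 had positive values and did not pass either, and of 5 membrane-type MMPs 0 were called, with 2 positive and 3 negative values.

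ADAMTS2 removes the amino-terminal propeptide from fibrillar procollagens. It stood at 22.5 to 37.8 CPM at the base (median 27.1), 9.52 to 32.9 in mid-tail skin (median 15.9) and 7.62 to 19.4 at the tip (median 12.8). The ram sums of base and tip again did not overlap. Single libraries did, with 14.2 CPM in a base library of ram 871868 and 23.9 in a tip library of ram 871772. ADAMTS2 fell by 1.14 (SE 0.19, adjusted p = 0.00163) and was lower in 7 of 7 rams. Its second base library was also above the first in every ram, as in ram 871784 with 21.8 and 50.8 CPM. With first libraries alone, ram 871868 went from 14.2 to 14.4 CPM, and the other rams were lower at the tip. The other procollagen N-proteinases, ADAMTS3 and ADAMTS14, had differences of -0.18 and -0.03 and did not pass, with ADAMTS3 at 1.13 to 3.44 CPM at the base and 0.882 to 2.62 at the tip. ADAMTS14 was at 0.513 to 1.25 CPM at the base and 0.496 to 1.61 at the tip, so that both groups overlapped.

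Of the 7 ADAMTS enzymes that cut aggrecan and versican, 6 had negative values and 1 of these fell. ADAMTS15, the one that fell, was at 2.78 to 8.7 CPM at the base (median 5.71), 2.58 to 7.3 in mid-tail skin (median 4.35) and 2.15 to 3.51 at the tip (median 2.32). It fell by 1.10 (SE 0.22, adjusted p = 0.00673), was lower in 7 of 7 rams, and overlapped between base and tip through A/A ram 835507 alone, which had 2.78 at the base. Its neighbour ADAMTS8 had a difference of -1.11 (SE 0.39, adjusted p = 0.115) at levels under 1 CPM in every ram sum. ADAMTS1 and ADAMTS5, the adjacent pair on chromosome 1, had differences of -0.30 and -0.07.

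Among the other ADAMTS enzymes, ADAMTS16 was at 0.883 to 3.12 CPM (median 2.19) at the base and 0.0995 to 1.42 (median 0.836) at the tip. It fell by 1.29 (SE 0.31, adjusted p = 0.0211) and was lower in 7 of 7 rams. The call was lost without ram 871772 (adjusted p = 0.0628) or 871868 (0.0906). ADAMTS6, a relative of ADAMTS10 that acts on fibrillin microfibrils and cell adhesion, was at 1.55 to 3.22 CPM at the base (median 2.57), 2.67 to 5.26 in mid-tail skin (median 4.1) and 2.65 to 7.1 at the tip (median 3.56). It rose by 0.70 (SE 0.19, adjusted p = 0.0439) and was higher in 6 of 7 rams, all but D/D ram 871869 with 2.94 at the base and 2.65 at the tip. With a ram left out, its adjusted p stayed under 0.05 only without ram 871869 (0.0701 without 835507, 0.0888 without 871772, 0.132 without 871784, 0.109 without 871787, 0.0611 without 871868 and 0.164 without 871932). Neither limma-voom nor the fit without the ram as a block called ADAMTS6, which was called in 7 of 16 alternatives.

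ADAMTSL4, a microfibril protein that lacks the protease domain, stood at 35.4 to 58.5 CPM (median 44.6) at the base and 14 to 61.7 (median 25.8) at the tip. It fell by 0.82 (SE 0.18, adjusted p = 0.0117) in 6 of 7 rams, whereas A/A ram 835507 had 53.8 at the base and 61.7 at the tip. The call was lost without D/D ram 871787 (adjusted p = 0.0625) or 871869 (0.0503). ADAMTSL1 (0.37, adjusted p = 0.236), ADAMTSL2 (-0.37, 0.581) and ADAMTSL5 (-0.37, 0.208) did not pass in edgeR over 7 rams. ADAMTSL5 passed with single libraries, with the library number as a block and without ram 835507.

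The ADAMs that shed cell surface proteins in skin, ADAM10, ADAM17 and ADAM9, did not pass. ADAM17, which releases TNF and ligands of the EGF receptor, was at 50.3 to 67.7 CPM at the base and 59.2 to 79.2 at the tip, a difference of 0.18 (SE 0.09, adjusted p = 0.256). ADAM10, which acts on Notch and cadherins, was at 38.5 to 73.8 CPM at the base and 53.3 to 69.8 at the tip. ADAM28, a sheddase named from lymphocytes, was at 1.03 to 4.39 CPM at the base (median 3.26), 0.74 to 2.78 in mid-tail skin (median 1.36) and 0.641 to 2.62 at the tip (median 0.775). It fell by 1.22 (SE 0.32, adjusted p = 0.0332) and was lower in 6 of 7 rams. The call was lost without A/A ram 871784 (adjusted p = 0.0662) and without each D/D ram, 871787 (0.128), 871868 (0.14) or 871869 (0.112).

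ADAM11, an ADAM of neural tissue without protease activity, was at 1.08 to 3.44 CPM (median 1.99) at the base and 0.669 to 1.65 (median 1.19) at the tip. It fell by 0.82 (SE 0.22, adjusted p = 0.0415) and was lower in 7 of 7 rams. It was called without ram 835507 or 871869 but not without 871772 (adjusted p = 0.0532), 871784 (0.0539), 871787 (0.124), 871868 (0.171) or 871932 (0.15). Its catalytically inactive relatives ADAM22 and ADAM23 had positive values that did not pass. ADAM19 was higher at the tip in 7 of 7 rams by 0.41 (SE 0.17, adjusted p = 0.192), with 3.53 to 4.81 CPM at the base and 3.78 to 9.35 at the tip.

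All 4 TIMPs had negative values and 1 fell. TIMP2, which inhibits MMP2 and also links it to MMP14 for activation, stood at 191 to 365 CPM at the base (median 304), 192 to 416 in mid-tail skin (median 245) and 174 to 304 at the tip (median 190). It fell by 0.46 (SE 0.13, adjusted p = 0.0423) and was lower in 7 of 7 rams, although the ranges overlapped and A/A ram 871932 moved from 191 to 190. The call was lost without ram 871772 (adjusted p = 0.0893), 871784 (0.108), 871787 (0.15) or 871869 (0.118). The second base library of TIMP2 was above the first in every ram. With first libraries alone, TIMP2 was higher at the tip in rams 835507 (237 to 322 CPM), 871932 (153 to 163) and 871868 (167 to 222). It was lower in the other rams, and with second libraries alone it was lower in every ram.

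MMP2 fell by more than TIMP2 in 6 of 7 rams when the log2 ratio of tip to base was taken within each ram. The difference of these ratios, MMP2 minus TIMP2, was -1.87 in 835507, -0.31 in 871772, -0.79 in 871784 and -0.92 in 871932 among the A/A rams. In the D/D rams it was -0.56 in 871787, -0.39 in 871868 and 0.01 in 871869.

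TIMP4 was at 2.01 to 7.13 CPM at the base and 1.58 to 7.62 at the tip, and its difference of -0.77 (SE 0.26, adjusted p = 0.0987) did not pass in edgeR. It passed without A/A ram 835507 (adjusted p = 0.0341), whose values were 5.69 at the base and 7.62 at the tip, and without 871784 (0.0314). TIMP1, a soluble inhibitor, was at 65.9 to 89.3 CPM at the base and 56 to 92 at the tip. TIMP3, which is bound to the matrix and inhibits ADAM17 and aggrecanases, was at 43.3 to 76.2 and 40.8 to 74.4. Both had a difference of -0.08 (SE 0.10 and 0.13), and that of TIMP3 turned to 0.01 without ram 871772.

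**Figure D2:**
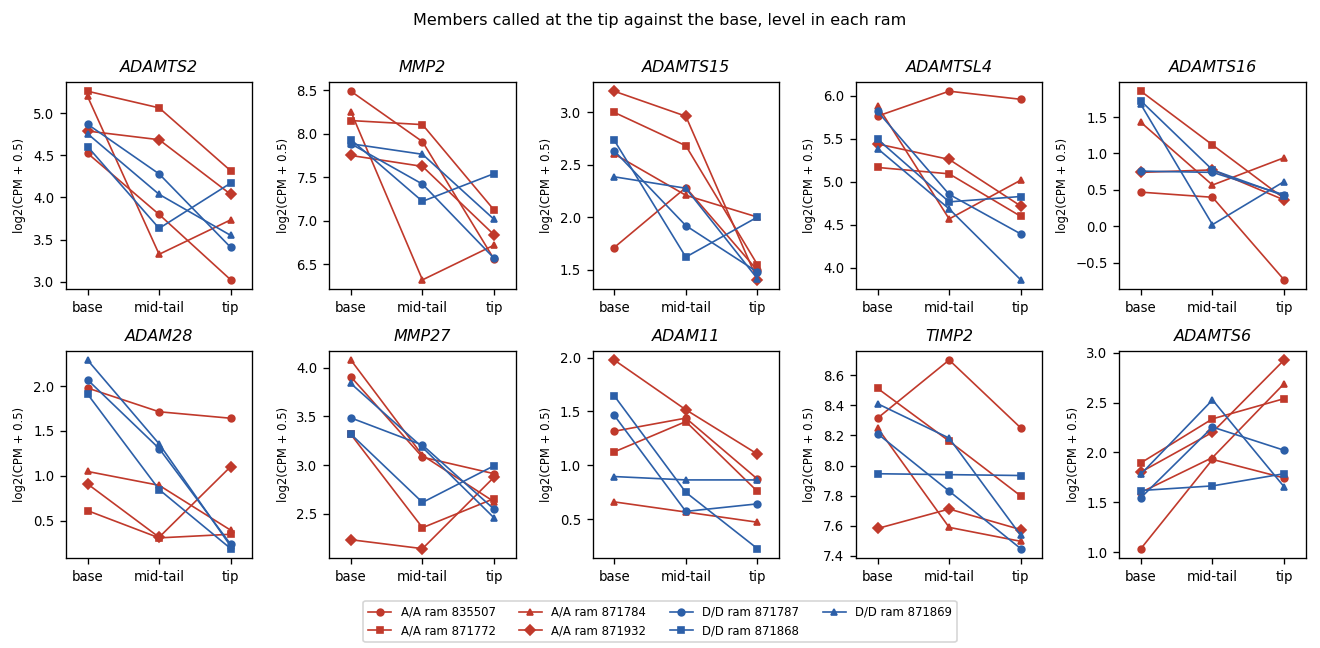
Level of the 10 members called at the tip against the base, as log2 of the CPM with 0.5 added, at each position, with a line for each ram (red for the 4 A/A, blue for the 3 D/D rams). ADAMTS2, MMP2, ADAMTS15, ADAMTS16, ADAM11 and TIMP2 ended below their base value in all 7 rams, and ADAMTS6 above it in 6.

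At the mid-tail, 0 of 56 members passed edgeR's test against the base over 7 rams, where 0.17% of all genes did. An unadjusted p under 0.05 was found for 13 members and for 11.3% of all genes. DESeq2 called ADAMTS2, MMP9 and MMP27, and limma-voom ADAMDEC1. ADAMDEC1, a soluble ADAM-like protein of macrophages and dendritic cells, had the smallest adjusted p, with a log2 fold change of 2.69 (SE 0.57, adjusted p = 0.0604) that was 1.49 without A/A ram 835507. ADAMTS2 (-0.74, adjusted p = 0.113), MMP27 (-0.71, 0.174) and MMP2 (-0.54, 0.305) were each lower in 7 of 7 rams, and ADAMTS6 (0.60, 0.239) was higher in 7 of 7. ADAMTSL4 had a difference of -0.55 (adjusted p = 0.238), MMP9 of 1.15 (0.192) and ADAMTS14 of 0.72 (0.281).

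Between the tip and the mid-tail 0 members passed, against 0.072% of all genes, and 9 had an unadjusted p under 0.05 in edgeR, against 5.24% of all genes, and all of these members were lower at the tip. DESeq2 and limma-voom called 0 as well. ADAMTS15 had -0.75 (adjusted p = 0.371), ADAMTS19 -0.60 (0.433), ADAMTS8 -1.18 (0.52), ADAMTS14 -0.75 (0.52), MMP2 -0.60 (0.542), TIMP2 -0.29 (0.878), ADAMTS5 -0.35 (0.88) and MMP19 -0.41 (0.923). TIMP2 was lower at the tip than at the mid-tail in 7 of 7 rams. The 3 comparisons of positions share their samples and are no independent evidence of each other. Of the 56 members, 33 had a mid-tail mean between those of the base and the tip, a share that was not computed over all genes.

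Within each genotype the same fit gave the change from base to tip in 4 A/A and in 3 D/D rams. In the A/A rams MMP7, ADAMDEC1 and ADAMTS6 rose and MMP2 and ADAMTS2 fell, 5 of 56 members (8.93%) against 1.63% of all genes. In D/D, ADAM28 and ADAMTSL4 fell, 2 of 56 members (3.57%) against 0.566% of all genes. MMP7, or matrilysin, which skin and glandular epithelia secrete, was at 4.15, 2.33, 3.86 and 4.69 CPM at the base of A/A rams 835507, 871772, 871784 and 871932. At the tip of the same rams it was at 8.39, 14.4, 5.56 and 8.95 CPM, above every A/A base value. It rose by 1.29 (SE 0.27, adjusted p = 0.0278), and the call was lost without ram 835507 (0.0561), 871772 (0.0736) or 871932 (0.104) and, through the shared spread, without D/D ram 871787 (0.0519) or 871868 (0.0559). D/D rams 871787, 871868 and 871869 had 8.5, 3.79 and 5.91 CPM at the base and 12.2, 3.9 and 4.12 at the tip, which go both ways.

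ADAMTS6 was at 1.55, 3.22, 2.53 and 2.99 CPM at the A/A base and at 2.85, 5.31, 5.95 and 7.1 at the A/A tip in the same order of rams, higher in 4 of 4. It rose by 1.03 (SE 0.22, adjusted p = 0.0307), a call lost without ram 871772 (0.0673), 871784 (0.0853), 871932 (0.199) or D/D ram 871787 (0.0618). In D/D rams it was at 2.42, 2.57 and 2.94 at the base and 3.56, 2.95 and 2.65 at the tip. MMP2 fell by 1.37 in A/A (SE 0.27, adjusted p = 0.021), a call lost without ram 835507 (0.0782) or 871932 (0.0787). ADAMTS2 fell by 1.23 (SE 0.26, adjusted p = 0.0283), a call lost without ram 835507 (0.109), 871772 (0.0605), 871932 (0.0862) or D/D ram 871869 (0.0529).

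ADAMDEC1 rose from base to tip of A/A rams, with a log2 fold change of 2.90 (SE 0.62, adjusted p = 0.0284), higher in 4 of 4 rams. Its A/A base values were 3.58, 0.28, 0.154 and 0.283 CPM, the mid-tail values 130, 1.22, 0.56 and 0.404, and the tip values 64, 1.08, 0.39 and 0.495. The first of each, ram 835507, stood far above the rest. Without that ram the difference was 1.36 (adjusted p = 0.193), and the call was also lost without D/D ram 871787 (0.0672), 871868 (0.058) or 871869 (0.0538). In D/D rams ADAMDEC1 was at 0.0411, 0.659 and 0.0619 CPM at the base and 0.0424, 0.502 and 0 at the tip.

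ADAM28 fell in D/D by 2.49 (SE 0.30, adjusted p = 0.0034), the smallest adjusted p of all members within a genotype. D/D rams 871787, 871868 and 871869 had base values of 3.7, 3.26 and 4.39 CPM, mid-tail values of 1.97, 1.3 and 2.06 and tip values of 0.679, 0.641 and 0.662, so that no position overlapped another. The fall was seen in each library as well, with 2.03 to 5.02 CPM in the 6 D/D base libraries and 0.262 to 1.15 in the 6 D/D tip libraries. A/A rams had 3.44, 1.03, 1.57 and 1.38 CPM at the base and 2.62, 0.775, 0.815 and 1.65 at the tip. With a D/D ram left out, 2 remain, and the adjusted p was 0.0629 without 871787, 0.0665 without 871868 and 0.077 without 871869.

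ADAMTSL4 fell in D/D by 1.21 (SE 0.26, adjusted p = 0.0442), from 55.9, 44.6 and 41.3 CPM at the base to 20.5, 27.9 and 14 at the tip. The call was lost without ram 871787 (adjusted p = 0.365), 871868 (0.092), 871869 (0.388) or A/A ram 871932 (0.064). ADAMTS2 and ADAMTS15 had values in D/D of -1.02 (adjusted p = 0.142) and -1.06 (0.158), lower in 3 of 3 rams each.

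The difference of the tip change between A/A and D/D passed for 0 of 56 members in edgeR, as for 0% of all genes, and 4 members had an unadjusted p under 0.05, against 6.11% of all genes. DESeq2 called ADAM28 and limma-voom 0 members. ADAM28 had a difference of 2.16 (A/A minus D/D, SE 0.40, adjusted p = 0.359), ADAMDEC1 of 3.46 (adjusted p = 0.729), MMP7 of 1.26 (0.729) and ADAMTS6 of 0.82 (0.789). Changes that passed in 1 genotype and not in the other are thus not shown to differ between them.

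**Figure D3:**
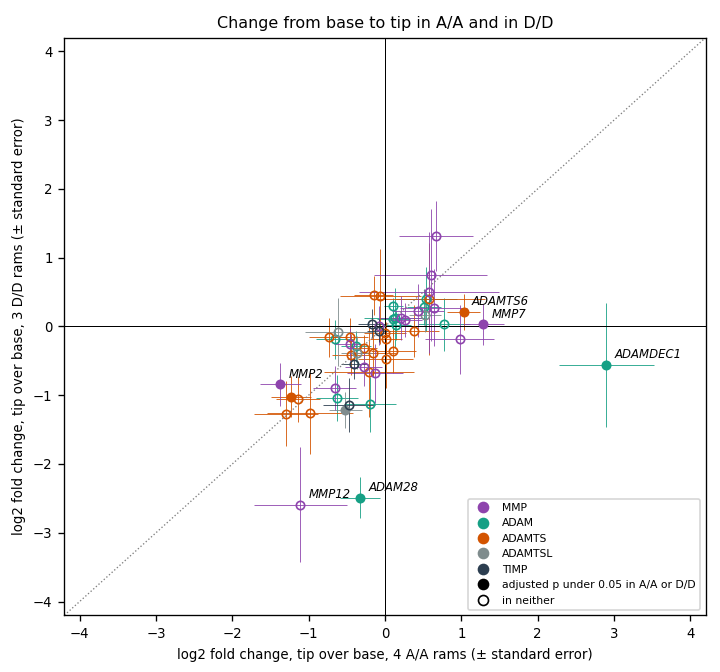
Log2 fold change of tip over base in the 4 A/A rams (horizontal axis) and the 3 D/D rams (vertical axis) for each of the 56 members, with standard errors as bars and the line of equal change dotted. Filled points passed an adjusted p under 0.05 in A/A or D/D, where ADAM28 lies at -2.49 in D/D and MMP7, ADAMTS6 and ADAMDEC1 lie right of the dotted line.

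At the mid-tail against the base, 0 of 56 members passed in A/A, where 0.0257% of all genes did, and 0 in D/D, where 0% did. Unadjusted p-values under 0.05 numbered 8 for A/A rams, against 10.1% of all genes, and 10 for D/D rams, against 6.74%. Among A/A rams, DESeq2 and limma-voom each called MMP7 and ADAMDEC1, and among D/D rams both called 0. MMP7 was higher at the mid-tail in all A/A rams, which had 11.8, 9.4, 10.5 and 14.5 CPM there, a difference of 1.61 (SE 0.27, adjusted p = 0.0523) that passed without ram 871772 (0.0269). In all D/D rams it was lower, with 6.15, 2.43 and 3.32 CPM at the mid-tail. ADAMDEC1 had 3.45 in A/A (adjusted p = 0.0701), which was 1.49 without ram 835507 and passed without ram 871784 (3.89, adjusted p = 0.0445). Also in A/A, MMP27 had -0.81 (adjusted p = 0.335) and ADAMTS2 -0.72 (0.363). In D/D, ADAM28 had -1.10 (adjusted p = 0.419), ADAMTSL4 -0.82 (0.546), ADAM33 -1.20 (0.606) and ADAMTS14 1.09 (0.606), each in the same direction in 3 of 3 rams.

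A/A and D/D rams were then compared at each position. The paper holds such a direct comparison possible at the base only, because mid-tail and tip lie farther from it in D/D rams. It still reports higher HOXB13 in A/A at mid-tail and tip, and p-values between genotypes there for a few genes. At the mid-tail and the tip, genotype and distance from the base therefore cannot be told apart. With edgeR, 0 members passed at the base (53 tested, 4 with an unadjusted p under 0.05), 0 at the mid-tail (56 tested, 3) and 0 at the tip (53 tested, 5), and of all genes 0% did at any position. Over all genes an unadjusted p under 0.05 was found for 3.2%, 5.63% and 10.2% at the base, the mid-tail and the tip. DESeq2 called MMP7 at the mid-tail and 0 members at the base and the tip, and limma-voom 0 at all of them. The median log2 ratio of A/A to D/D levels over members was 0.02 for the base, 0.26 for the mid-tail and 0.23 for the tip, beside 0.01, 0.03 and 0.02 over all genes. At the mid-tail 44 of 56 values were positive, a count for which no share of all genes is given here.

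The values of the A/A and D/D rams did not overlap for MMP1 at the base, for MMP7 at the mid-tail and for ADAM28, ADAM33 and MMP14 at the tip. These are 1.89%, 1.79% and 5.66% of the members, against 4.69%, 8.06% and 15.1% of all genes, a smaller share of the members than of all genes at each position. MMP7 at the mid-tail was higher in A/A by 1.53 (SE 0.36, adjusted p = 0.848). ADAM33, a sheddase of mesenchymal cells, was at 17.3, 5.64, 5.39 and 7.14 CPM in A/A tips and 2.59, 3.43 and 3.38 in D/D tips, a difference of 1.51 (SE 0.46, adjusted p = 0.458). MMP14 was lower at the A/A tip, with 93, 108, 90.7 and 103 CPM against 110, 141 and 127 in D/D (-0.35, SE 0.13, adjusted p = 0.458). MMP1, the interstitial collagenase, was at 0.662, 0.466, 1.17 and 0.283 CPM at the A/A base and 1.36, 2.31 and 1.42 at the D/D base (-1.37, SE 0.49, adjusted p = 1).

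The other members with the smallest p-values between genotypes overlapped. At the base these were TIMP3 (0.51, adjusted p = 1), ADAM28 (-1.03, 1) and MMP13 (1.55, 1), and at the mid-tail ADAM33 (1.79, 0.848), ADAMDEC1 (5.10, 0.848) and MMP13 (1.85, 0.848). At the tip they were ADAMDEC1 (6.33, 0.458) and ADAMTS6 (0.80, 0.458). The values of ADAMDEC1 rested on ram 835507, without which the mid-tail value was -0.37 and the tip value 1.73.

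**Figure D4:**
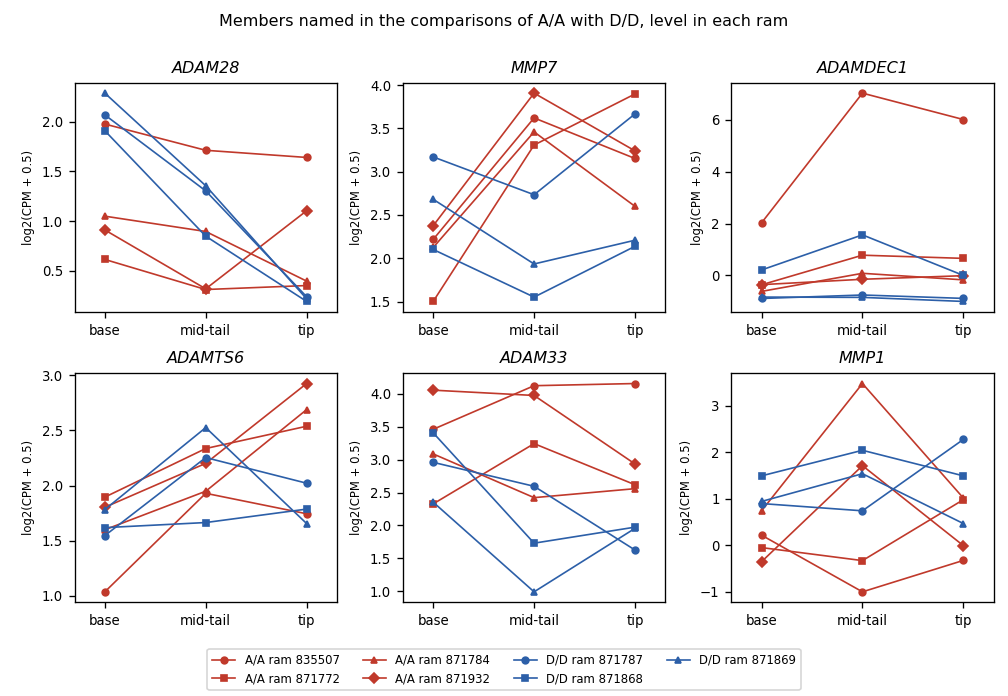
Level of 6 members named in the comparisons of A/A with D/D, as log2 of the CPM with 0.5 added, at each position, with a line for each ram. ADAM28 ran down in all D/D rams, MMP7 was higher at the mid-tail than at the base in all A/A rams and lower in all D/D rams, without passing the test in A/A or D/D, and ADAMDEC1 was set apart by A/A ram 835507.

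The members that differed most between rams, by the SD of the ram means of log2(CPM + 0.5) among those of at least 1 CPM on average, were ADAMDEC1 (2.049), MMP12 (1.052), MMP9 (0.976), ADAMTS4 (0.81) and MMP1 (0.792). ADAMDEC1, MMP12 and MMP9 are known from macrophages, dendritic cells and neutrophils, and ram 835507 was the highest in all of them. From base to tip that ram had MMP12 at 7.55, 13.9 and 4.08 CPM, where the other A/A rams lay between 0.444 and 1.82. MMP9 was at 4.81, 15.6 and 17 CPM in that ram at the base, mid-tail and tip. The paired libraries of its mid-tail gave 31.5 and 271 CPM for ADAMDEC1, 6.96 and 23.7 for MMP12 and 19.3 and 10.5 for MMP9. For ADAMDEC1 and MMP12 the second library was the higher, and for MMP9 the first.

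ADAMTS4, an aggrecanase, was highest at the tip of A/A ram 871772 with 17.2 CPM, where its libraries gave 27.9 and 10.3, while the other A/A tips lay between 0.365 and 1.9. MMP1 was highest at the mid-tail of A/A ram 871784 with 10.6 CPM, from 12.4 and 8.57 in the libraries, and had no count at the mid-tail of 835507.

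**Figure D5:**
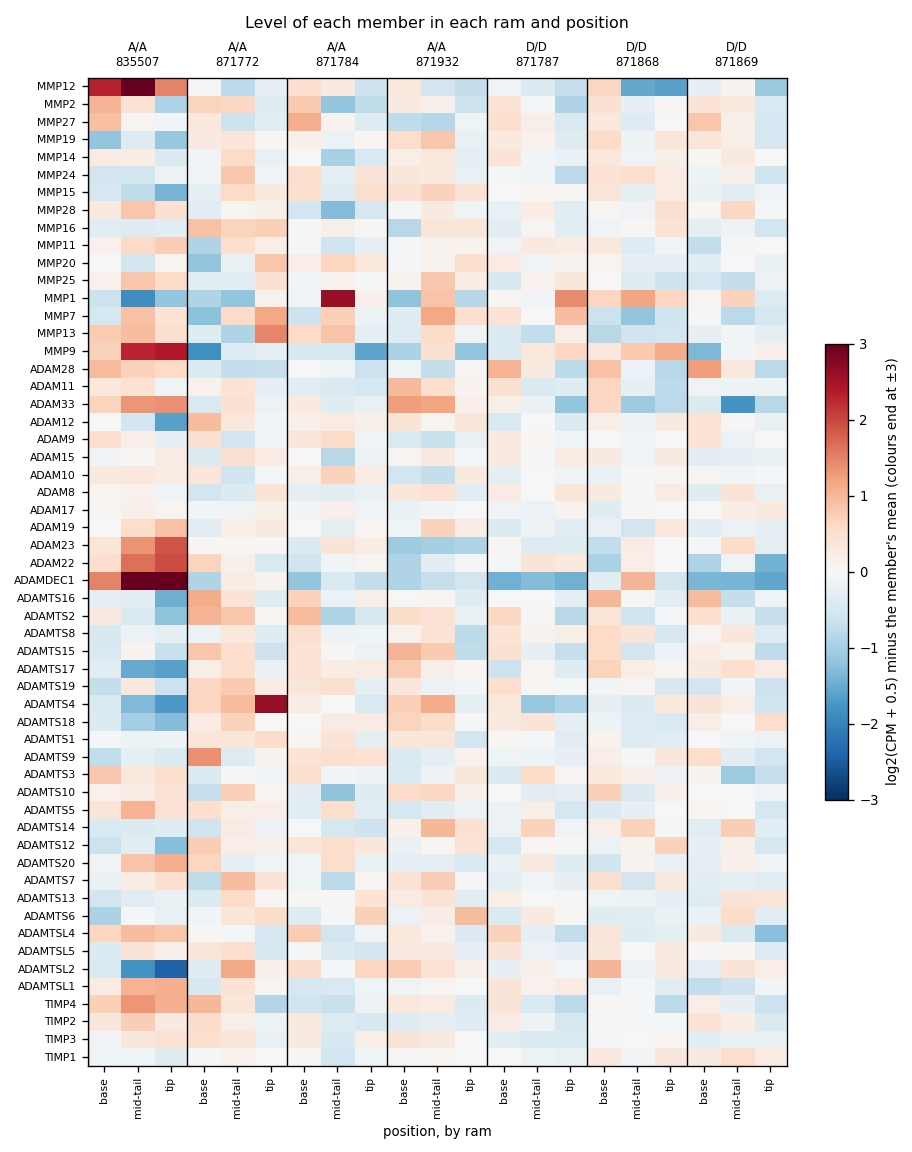
Level of each of the 56 members in each ram and position, as the difference of log2(CPM + 0.5) from the mean of the member over the 21 ram sums, with colours that end at 3 above or below it. The columns of ram 835507 carry the deepest red for MMP12, MMP9 and ADAMDEC1, and those of 871772 at the tip and 871784 at the mid-tail for ADAMTS4 and MMP1.

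Markers of other cells moved with position and ram, and their part in the results above was not tested. Fibroblast markers, beside MMP2, ADAMTS2 and TIMP2, summed to 8170 to 16400 CPM at the base and 2740 to 9900 at the tip, none of them at 0. Of 5 tested, COL1A1 (-1.29, adjusted p = 0.0336) and COL3A1 (-1.16, 0.021) fell, while DCN (-0.46, 0.139), LUM (-0.20, 0.585) and PDGFRA (0.46, 0.121) did not pass. Keratinocyte markers summed to 12400 to 25600 CPM at the base and 17700 to 41000 at the tip, and KRT1 of 5 tested rose (1.34, adjusted p = 0.0029). Macrophage markers, beside MMP12 and ADAMDEC1, summed to 38.1 to 66.8 CPM at the base and 26 to 48.4 at the tip. CD14 (-1.09, adjusted p = 0.0015) and CSF1R (-0.73, 0.00983) fell, AIF1 (-0.24, 0.437) did not pass, and CD68 was at 0 in every library. In ram 835507 the sum was 56.99, 83.6 and 48.37 CPM at the base, mid-tail and tip, the highest of all rams at the mid-tail and the tip.

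Neutrophil markers, beside MMP9, summed to 3.82 to 123 CPM at the base and 12.3 to 670 at the tip, with 0 of 3 tested called by edgeR and 2 at an unadjusted p under 0.05. S100A8 (2.23, adjusted p = 0.119) and S100A9 (2.15, 0.104), which keratinocytes also make, and CSF3R (0.47, 0.693) had positive values. In ram 835507, the highest for MMP9, the sum at the tip was 12.3 CPM, the lowest of the 7 rams. CSF3R went the other way in that ram. It was at 3.31, 3.39 and 2.75 CPM at the base, mid-tail and tip, the highest of the 7 rams at each position, although ram 871772 came close at the tip (2.68). T and B cell markers, beside ADAM28, summed to 5.82, 6.32 and 10.8 CPM at the D/D base as lowest, median and highest and to 2.98, 5.29 and 7 at the D/D tip. Over 7 rams 0 of 4 were called at the tip by edgeR, and 1 had an unadjusted p under 0.05.

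Further marker lists gave these counts at the tip against the base, where 4.99% of all genes were called. Tendon and cartilage markers rose in 2 of 6 (TNMD by 1.85, COMP by 3.03), smooth muscle and pericyte markers in 1 of 5 (RGS5) and sebaceous gland markers in 1 of 5 (SOAT1). Mast cell markers fell in 1 of 4 (HDC), sweat gland and simple epithelium markers in 2 of 4 (KRT8 and KRT18) and melanocyte markers in 2 of 4 (TYR and DCT). Of the wool follicle (3 tested), endothelial (5), bone and osteoclast (3), adipocyte (4) and skeletal muscle (3) markers 0 were called by edgeR, with 0, 1, 1, 3 and 0 at an unadjusted p under 0.05. In ram 835507 the wool follicle markers summed to 8382, 2037 and 628.1 CPM at the base, mid-tail and tip, while the other tips had 9337 or more. Its fibroblast markers summed to 10160, 4152 and 2743 CPM. Both sums were the lowest of all rams at the mid-tail and the tip.

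Partners of the metalloproteases were read from 6 further lists, over 7 rams at the tip against the base, where 4.99% of all genes were called. The lists are not separate from the markers, since COL1A1, COL3A1 and COMP are in the substrate list and in a marker list. Of 8 inhibitors outside the TIMP family, 3 fell and 0 rose. A2M, the general protease trap alpha-2-macroglobulin, was at 7.02 to 26.7 CPM at the base and 2.25 to 23.7 at the tip and had a log2 fold change of -1.5 (SE 0.24, adjusted p = 0.00153), with a fall in all rams but 835507. STC1, a stanniocalcin that blocks the pappalysins, fell by 0.87 (SE 0.15, adjusted p = 0.00272) in 7 of 7 rams. RECK, a membrane-anchored inhibitor of MMP2, MMP9 and MMP14, fell by 0.76 (SE 0.19, adjusted p = 0.0292) in 6 of 7.

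Of 9 other zinc endopeptidases, 2 rose. PAPPA, a pappalysin that frees insulin-like growth factors from their binding proteins, rose by 0.63 (SE 0.17, adjusted p = 0.0379), and MME, or neprilysin, which degrades peptides at the cell surface, by 0.84 (SE 0.21, adjusted p = 0.0268). Of 13 activating serine proteases and inhibitors, the urokinase gene PLAU rose (0.44, SE 0.09, adjusted p = 0.0075) and the tissue plasminogen activator gene PLAT fell (-0.83, SE 0.23, adjusted p = 0.0388). Of 8 partners of ADAM10 and ADAM17, 0 were called by edgeR and 3 had an unadjusted p under 0.05, with FRMD8 (-0.31, adjusted p = 0.081) and TSPAN33 (-0.54, 0.131) the lowest.

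Of 33 substrates, 3 rose and 3 fell. The collagens COL1A1, COL3A1 and COL5A1 (-0.70, adjusted p = 0.0211) fell, each in 7 of 7 rams, while the glycoproteins TNC (1.73, adjusted p = 5.8e-05), COMP (3.03, 0.000218) and THBS1 (0.57, 0.0305) rose. Of 12 inducers, among them FOS, JUN, ETS1 and the interleukins, 0 were called by edgeR and 2 had an unadjusted p under 0.05. EGR1 (-0.69, adjusted p = 0.0975) and IL1B (1.49, 0.226) had the smallest p-values.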

How the data were processed

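Poly(A)-selected RNA of tail skin was made into stranded CorALL libraries, read in pairs, checked by the authors with FastQC 0.11.9, and placed on the ARS-UI_Ramb_v3.0 build by ContextMap 2 using BWA. Deposited are unnormalised counts per RefSeq gene, counted on the strand of the transcript by featureCounts, whose version is not given in the sources used here. The deposited columns of the tail tip are carried as estimated counts in the table of units because of their names, but are whole counts, so that rounding changed nothing. No exon lengths and no sequences were used here, so levels were not ranked between genes and the parts of the naming rule that need them were not applied.

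Libraries were summed per ram and position. edgeR 4.0.16 (R 4.3.3) gave the quasi-likelihood tests after TMM and filterByExpr, with a block for each ram between positions (19444 genes) and with genotype as the only term at each position (17738, 17996 and 17842 genes). The deviations of sums from 1 ram correlated by more than 0.1 in 20 of 21 pairs, from 0.0539 to 0.851, and pairing follows from the shared animal. CPM divide by the total scaled with TMM. Tests were checked on simulated data.

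The members, lists and rules were chosen with earlier results of these data known. Named were all members called in a comparison, the 8 (over 7 rams) or 4 (others) with the smallest p, the TIMPs and the 5 that varied most between rams. Named from the 6 lists of partners were all called genes or the 2 with the smallest p, and from the 17 marker lists those called, except 1 list whose result is not reported here. A few further members are given beside these, as relatives or neighbours, and were chosen after their values were seen.

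Alternatives tried were limma-voom (limma 3.58.1) and DESeq2 1.42.0 on the sums, single libraries, the library number as a block, no block, RLE size factors, other filters (none, or at least 1 CPM in 3 sums), the design and thresholds of the methods, and each ram left out.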

Additional observations from a re-analysis of the deposited data

Results flagged for a closer look

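Dixon's criterion for a value far from the others (a gap to the next that takes up most of the range) was applied to the 4 A/A rams at each position for 27 named members, 81 groups in all. It marked 12 values, of which 9 came from ram 835507. Chance marks about 1 in 20 independent groups, a rate these counts cannot be set against, because some of the members were named for their spread between rams and the 3 positions share the same rams. In that ram ADAMDEC1 was far above the other A/A rams at the base (3.58 CPM, next 0.283), the mid-tail (130, next 1.22) and the tip (64, next 1.08). MMP12 stood apart in the same ram at the base (7.55 CPM, next 1.82), the mid-tail (13.9, next 1.47) and the tip (4.08, next 0.858). MMP9 did so at the mid-tail (15.6 CPM, next 4.04) and the tip (17, next 2.24), and ADAM33 at the tip (17.3, next 7.14). ADAMTS4 was far above the rest at the tip of ram 871772 (17.2 CPM, next 1.9). Ram 871784 was far below the rest at the mid-tail for ADAM11 (0.98 CPM, next 2.15) and TIMP3 (39.3, next 66.2). Its paired libraries there gave 1.37 and 0.572 CPM for ADAM11 and 58.4 and 19.1 for TIMP3, so that the second library was the lower for both. Over all genes no other pair of libraries differed as much (chi-square per degree of freedom of 128). Over the members this pair had 51.8, below 73.9 at the base of the same ram and 71.2 at the mid-tail of ram 835507.

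MMP7 moved in opposite directions in the genotypes between base and mid-tail, since its log2 fold change was 1.61 in A/A, where all 4 rams were higher at the mid-tail, and -0.66 in D/D, where all 3 were lower. This difference between the genotypes was not tested.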

How the results depend on the processing

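Members called at the tip over 7 rams numbered 10 in the reported fit. They were 18 with single libraries, which counts libraries of 1 ram as separate samples, 18 with the replicate block of the library number, 3 without the ram as a block, 3 at the thresholds of the methods and 4 to 10 with a ram left out (4 without 871787, 6 without 871772, 871868 or 871869). The share of all genes called moved as well, from 4.99% to 11.6% with single libraries, 11.4% with the replicate block, 0.725% without the ram block and 2.44% without ram 871787. ADAMTS2, ADAMTS15 and MMP2 were called in all 16 alternatives of that comparison. The library-number block takes 1 shift for all positions. It therefore does not take up a difference between first and second libraries at the base alone, as MMP2, ADAMTS2 and TIMP2 had. At the mid-tail over 7 rams 0 became 3 with DESeq2, 1 with limma-voom, 3 with single libraries, 3 with the replicate block and 1 without the filter. At the A/A tip 5 became 9 with single libraries, 9 with the replicate block, 9 with the stated DESeq2 design, 0 without the ram block, 0 at the thresholds of the methods and 1 to 4 with a ram left out, while the share of all genes went from 1.63% to 7.31% with single libraries and 9.35% with the stated design. At the D/D tip 2 became 4 with DESeq2, 1 with limma-voom, 5 with single libraries, 6 with the replicate block, 9 with the stated design, 0 without the ram block, 1 at the thresholds of the methods and 0 to 2 with a ram left out, and that share went from 0.566% to 5.33% with single libraries and 7.02% with the stated design. At the A/A mid-tail 0 became 2 with DESeq2, limma-voom, single libraries, the replicate block or no filter, 3 with the stated design and 0 to 1 with a ram left out, and at the D/D mid-tail 1 with the stated design. DESeq2 called 1 member for the difference of the tip change and 1 between the genotypes at the mid-tail, in place of 0. The other 131 counts of members lay within 1.5 times the reported ones, and most of these were 0 against a reported 0. The reported fit called members only at the tip against the base, over 7 rams, in A/A and in D/D. Among the counts of these comparisons, more moved beyond that range than stayed within it.

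Single named values kept direction and side of the threshold in 812 cases, lost the call in 73, gained it in 39 and reversed in 2, which were TIMP3 at the tip without ram 871772 (0.01, range -0.17 to 0.01 with a ram left out) and ADAMDEC1 between the genotypes at the mid-tail without ram 835507 (-0.37, range -0.37 to 8.64). The cause of these shifts was not tested, apart from fewer rams or genes where these were left out. Members under about 1 CPM, such as ADAMTS8, rest on few counts, and 3 D/D rams limit every D/D result.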
